A study of Mus musculus with 32 samples.

Results

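Replication-dependent histone genes were followed across adenomas and crypts of the mouse intestine. They were taken by the platform's symbols beginning Hist1h to Hist4h for histone H1, H2A, H2B, H3 or H4, which gave 70 probes for 48 genes among the 45281 probes of the scanner table. H1 had 3 probes for 2 genes, H2A 21 probes for 14 genes, H2B 15 probes for 10 genes, H3 12 probes for 9 genes and H4 19 probes for 13 genes. The large Hist1 cluster on chromosome 13 held 39 of the genes, the Hist2 cluster on chromosome 3 held 8, and the remaining gene, H4f16, lies on chromosome 6. Of the 70 probes, 47 were detected in all 32 arrays and 11 in fewer than 16 of them. Histone genes are nearly identical in their coding parts, and the probe sequences were not used here, so a probe named for 1 gene may also have measured others of its class.

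The data are 32 bead arrays (Illumina MouseWG-6 v2.0) of RNA from mice of C57BL/6 background that were 120 days old. The paper names C57BL/6J for both wt groups and says that the knockout lines were crossed back to C57BL/6 over 4 generations. There were 20 arrays of adenomas and 12 of crypts. All adenomas came from mice heterozygous for the ApcMin allele, a truncation of the tumour suppressor Apc, and all crypts came from mice without it. Adenomas comprised 3 arrays of ApcMin QKO, which lacks Pygo1, Pygo2, Bcl9 and B9l, 5 arrays of ApcMin Pygo1/2 DKO, 3 arrays of ApcMin Bcl9/B9l DKO and 9 arrays of ApcMin alone, which carried no villin.Cre. Crypts comprised 3 arrays each of Pygo1/2 DKO, Bcl9/B9l DKO, wt with villin.Cre, and wt. Pygo1 was deleted in the germline, while the LoxP alleles of Pygo2, Bcl9 and B9l were deleted by heterozygous villin.Cre in the intestinal epithelium, so other cells of an adenoma kept these genes. Adenomas were excised whole and crypts were released with EDTA, and a sample typically pooled several RNA extractions of 1 mouse. The labels do not say that the arrays of a group came from separate mice, so the p-values cover the spread between the samples, which may be technical. The RNA samples were made in 2 batches, numbered in the labels, with the QKO adenomas and ApcMin adenoma replicates 4, 6 and 8 in batch 2 and all others in batch 1.

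Core histones H2A, H2B, H3 and H4 form the protein spool of the nucleosome, and linker histone H1 binds the DNA between spools. The genes studied here are transcribed mainly in S phase, when replicated DNA must be packaged, and their mRNAs end in a conserved stem-loop in place of the usual poly(A) tail. Many are arranged head to head, an H2A gene and an H2B gene sharing 1 control region, and some also give polyadenylated mRNAs in cells that have stopped dividing. In the intestine the crypt base holds the dividing cells, and Wnt signalling through β-catenin, whose transcriptional cofactors include Pygo and Bcl9, keeps them dividing. Apc restrains β-catenin, and its loss starts the adenoma.

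In 4 head-to-head pairs on chromosome 13 the start sites lie no more than 300 bases apart, and the array measured both partners of each. Their shared control regions are shown because the probes named for the partners differed in direction between adenomas and crypts. They come from RefSeq promoters of GRCm38.p6 and run 5′ to 3′ on the strand of the H2A gene. Capitals mark CCAAT, read on either strand (so also ATTGG), and the octamer ATTTGCAT, also read on either strand (so also ATGCAAAT). The regions are chr13:21753913-21754075 (- strand), chr13:22035644-22035820 (- strand), chr13:22042950-22043197 (- strand) and chr13:23574208-23574380 (+ strand), in the order printed.
H2ac15/H2bc15: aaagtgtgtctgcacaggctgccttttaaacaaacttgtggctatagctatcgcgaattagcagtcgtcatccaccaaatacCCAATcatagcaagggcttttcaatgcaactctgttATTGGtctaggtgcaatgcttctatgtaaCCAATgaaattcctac
H2ac12/H2bc12: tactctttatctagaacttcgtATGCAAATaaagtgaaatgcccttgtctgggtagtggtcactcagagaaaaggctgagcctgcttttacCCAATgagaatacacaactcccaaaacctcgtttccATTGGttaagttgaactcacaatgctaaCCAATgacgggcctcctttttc
H2ac11/H2bc11: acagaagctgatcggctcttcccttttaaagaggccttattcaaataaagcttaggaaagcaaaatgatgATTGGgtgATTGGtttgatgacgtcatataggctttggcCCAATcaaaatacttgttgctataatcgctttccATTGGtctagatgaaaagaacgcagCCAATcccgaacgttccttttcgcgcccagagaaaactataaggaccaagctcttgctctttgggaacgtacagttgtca
H2ac7/H2bc7: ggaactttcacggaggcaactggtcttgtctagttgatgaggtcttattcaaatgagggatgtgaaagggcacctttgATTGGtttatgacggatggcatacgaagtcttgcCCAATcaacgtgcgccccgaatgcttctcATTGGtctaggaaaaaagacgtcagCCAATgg
CCAAT occurred 3, 3, 5 and 4 times in these regions, the octamer once, in H2ac12/H2bc12, and TATAAA in none of them. In windows of 250 bases before to 50 after the start site, CCAAT was present in 35 of 44 histone windows (79.5%), against 37.4% of 32851 RefSeq windows. It was in all 14 H2A, 9 H2B, 7 H3 and 2 H1 windows but in 3 of 12 H4 windows. TATAAA was in 24 of the 44 windows (54.5%, against 13.6% of all windows), and ATTTGCAT in 8 (18.2%, against 1.74%), of which 4 were H2A and 4 H2B. These matches are letters in a window and show no binding.

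The histone genes did not move as one between ApcMin adenomas and wt crypts. Most H2A probes were higher in adenomas, most H2B probes and H1f2 were lower, a few H3 probes were higher, and no H4 probe passed the threshold. Of 66 histone probes tested, 16 were called higher and 18 lower (limma, adjusted p under 0.01), while 38.3% of all 19002 probes were called, 18.4% higher and 20% lower. The classes gave medians of 0.84 (H2A), -0.84 (H2B), -0.75 (H1), 0.31 (H3) and -0.06 (H4) on the log2 scale, against -0.08 over all probes. The groups' arrays did not overlap for 19 probes that were higher and 19 that were lower (22.7% and 24.6% of all probes), taking the 6 ApcMin arrays of batch 1, on which the fitted difference rests.

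H2A, which pairs with H2B on the flank of the nucleosome, was called higher in 13 of 21 probes and lower in 5. By gene, 8 of the 14 were higher only, 2 were lower only (H2ac18 and H2ac19) and 1 gave both directions (H2ac20). H2ac24 (Hist1h2ap) measured between 13.92 and 14.32 (median 14.14) in the 6 ApcMin adenoma arrays of batch 1, and 14.27 to 14.37 in the 3 of batch 2, against 12.97, 13.10 and 13.23 in wt crypts (normalised log2 intensity, as are all levels given here). Every adenoma array lay above every crypt array. The fitted change was 1.04 on the log2 scale (SE 0.13, 2.06-fold, limma adjusted p = 1.59e-05). H2ac22 (Hist1h2an) had the highest change of the class, 1.19, and measured 11.85 to 12.89 in batch 1 ApcMin adenomas (median 12.44), against 11.28, 11.03 and 11.17 in wt crypts. H2ac7, H2ac10, H2ac11, H2ac12, H2ac13 and H2ac15 were called higher too, with changes between 0.69 and 1.13, so all 8 genes that were higher only belong to the Hist1 cluster. The lowest of these changes was that of H2ac7 probe ILMN_2795040 (0.69, SE 0.18, adjusted p = 0.00616), at 11.78 to 12.51 in batch 1 ApcMin adenomas (median 12.16), against 11.30, 11.33 and 11.71 in wt crypts.

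The H2A genes of the Hist2 cluster did not share 1 direction. H2ac20 (Hist2h2ac) has 2 probes, and they moved in opposite directions. Probe ILMN_1218380 measured 13.72 to 14.19 in batch 1 ApcMin adenomas (median 13.94), against 12.89, 13.05 and 13.00 in wt crypts. Probe ILMN_1254276 measured 6.91 to 7.41 in batch 1 ApcMin adenomas (median 7.21), against 8.58, 8.65 and 8.62 in wt crypts. Neither probe's groups overlapped. Their changes were 0.98 (SE 0.13, adjusted p = 4.50e-05) and -1.40 (SE 0.13, 2.64-fold lower, adjusted p = 1.62e-06) on the second, the smallest p of all histone probes. H2ac18 (Hist2h2aa1) fell by 0.61 to 1.10 on its 3 probes, and H2ac19 (Hist2h2aa2) fell by 1.02 (SE 0.19, adjusted p = 0.000519). H2ac19 measured 9.56 to 10.51 in batch 1 ApcMin adenomas (median 9.94), against 11.03, 11.00 and 11.05 in wt crypts, again without overlap. The remaining H2A gene of the cluster, H2ac21 (Hist2h2ab), changed by 0.76 and was not called (adjusted p = 0.0171). In the Hist1 cluster, H2ac4 (0.36, adjusted p = 0.0429) and H2ac8 (0.17, adjusted p = 0.392) were not called either.

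**Figure D1:**
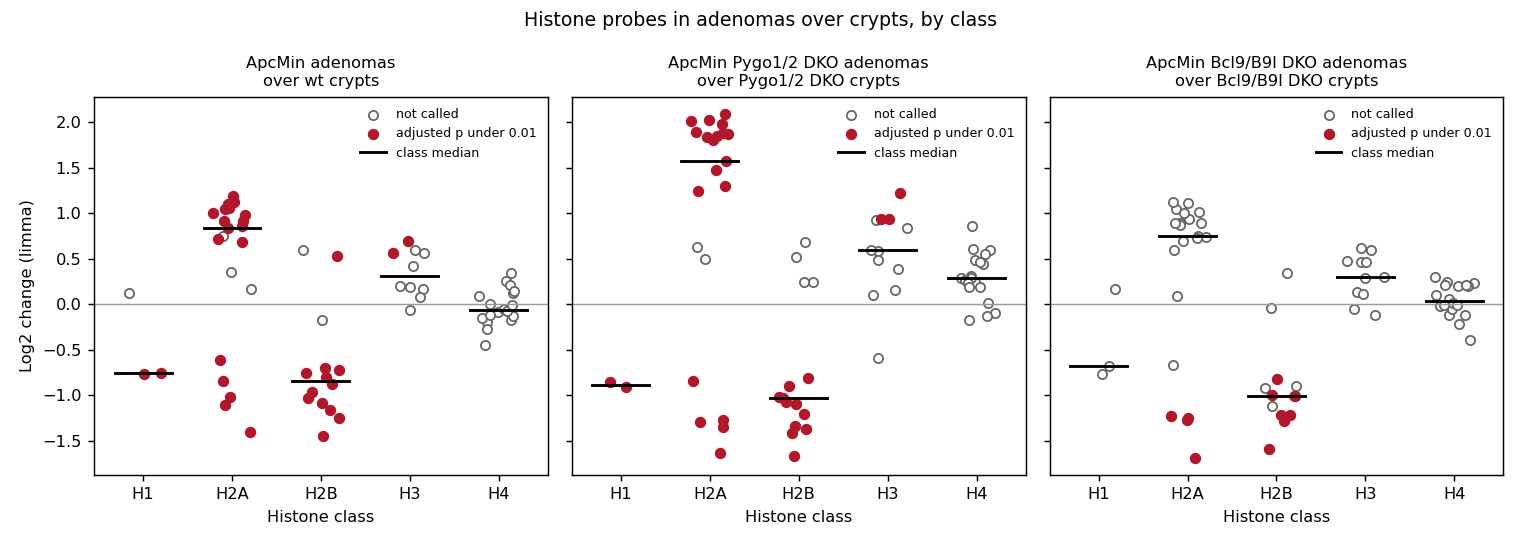
Log2 change of each tested histone probe (vertical axis) by class in the 3 comparisons of adenomas with crypts. Filled points passed limma's adjusted p under 0.01, open points did not, and bars give class medians, which for H2A are 0.84, 1.57 and 0.75 and for H2B -0.84, -1.02 and -1.0 from left to right.

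H2B, the partner of H2A, was called lower in 11 of 14 probes tested and higher in 1. By gene, 8 were lower and 1, H2bc21, was higher. H2bc15 (Hist1h2bn) measured 8.93 to 9.31 in batch 1 ApcMin adenomas (median 9.06) and 9.27 to 9.44 in batch 2, against 10.30, 10.42 and 10.25 in wt crypts. Adenoma arrays were all below crypt arrays, and the change was -1.25 (SE 0.12, 2.38-fold lower, adjusted p = 1.995e-06). H2bc4 (Hist1h2bc) measured 11.36 to 11.92 on probe ILMN_1242399 in batch 1 ApcMin adenomas (median 11.58), against 12.40, 12.44 and 12.20 in wt crypts. It fell by 0.75 there (SE 0.14, adjusted p = 0.000675), and by 1.44 on its other probe (SE 0.20). H2bc12 (Hist1h2bk), given by probe ILMN_2636781, measured 8.56 to 9.22 in batch 1 ApcMin adenomas (median 8.86), against 9.76, 10.20 and 10.14 in wt crypts, and fell by 1.16 (SE 0.16, adjusted p = 4.53e-05).

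Some of these levels differed between the ApcMin arrays of the 2 batches, where batch and differences between samples cannot be told apart. H2bc7 (Hist1h2bf) measured 10.64 to 11.39 in the 6 batch 1 ApcMin arrays but 11.79 to 11.97 in the 3 of batch 2, against 11.85, 11.90 and 11.79 in wt crypts, which are of batch 1. Its change of -0.88 (SE 0.17, adjusted p = 0.000952) therefore rests on the batch 1 arrays. With batch 1 alone, 32 histone probes were called, 15 higher and 17 lower. H2bc21 (Hist2h2be), the H2B gene of the Hist2 cluster, measured 7.24 to 7.71 on probe ILMN_1253851 in batch 1 ApcMin adenomas (median 7.35), against 6.73, 6.91 and 6.89 in wt crypts. That probe was called higher (0.53, SE 0.14, adjusted p = 0.00567), while the gene's other probe changed by -0.17 and was not called.

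Linker histone H1f2 (Hist1h1c) was lower on both probes. On ILMN_2774537 it measured 11.55 to 12.27 in batch 1 ApcMin adenomas (median 11.92) and 12.36 to 12.97 in batch 2, against 12.62, 12.65 and 12.83 in wt crypts. Batch 1 adenoma arrays lay below all crypt arrays, whereas those of batch 2 overlapped them. The changes were -0.77 (SE 0.19, adjusted p = 0.00432) and -0.75 (SE 0.20, adjusted p = 0.00567). The other linker histone measured, H1f5, was not detected in batch 1 ApcMin adenomas or in wt crypts.

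H3, which with H4 forms the nucleosome's centre, was called higher in 2 of 10 probes, and 9 of the 10 had a change above 0 (45.4% of all probes). H3c4 (Hist1h3d) measured 8.08 to 8.39 in batch 1 ApcMin adenomas (median 8.24), against 7.49, 7.42 and 7.67 in wt crypts, without overlap (0.70, SE 0.13, adjusted p = 0.000711). H3c6 (Hist1h3e) measured 7.95 to 8.53 in batch 1 ApcMin adenomas (median 8.23), against 7.36, 7.62 and 7.93 in wt crypts (0.56, SE 0.16, adjusted p = 0.00854). H3c1 and H3c7 missed the threshold, with changes of 0.59 (adjusted p = 0.0107) and 0.56 (adjusted p = 0.0147).

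None of the 18 H4 probes was called by limma, and 2 had an unadjusted p under 0.05, 1 in each direction, where 57.6% of all probes did. Their changes lay between -0.44 and 0.35. H4c8 (Hist1h4h), which had the smallest p of the class (adjusted p = 0.0332), measured 6.60 to 7.28 in batch 1 ApcMin adenomas (median 7.08), against 7.31, 7.48 and 7.66 in wt crypts, without overlap. H4c1 (Hist1h4a) had the highest change, 0.35, with batch 1 ApcMin adenomas at 8.62 to 9.00 (median 8.86) and wt crypts at 8.29, 8.47 and 8.70. The median of the class was -0.06, and 0.09 when arrays were scaled to a common median.

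**Figure D2:**
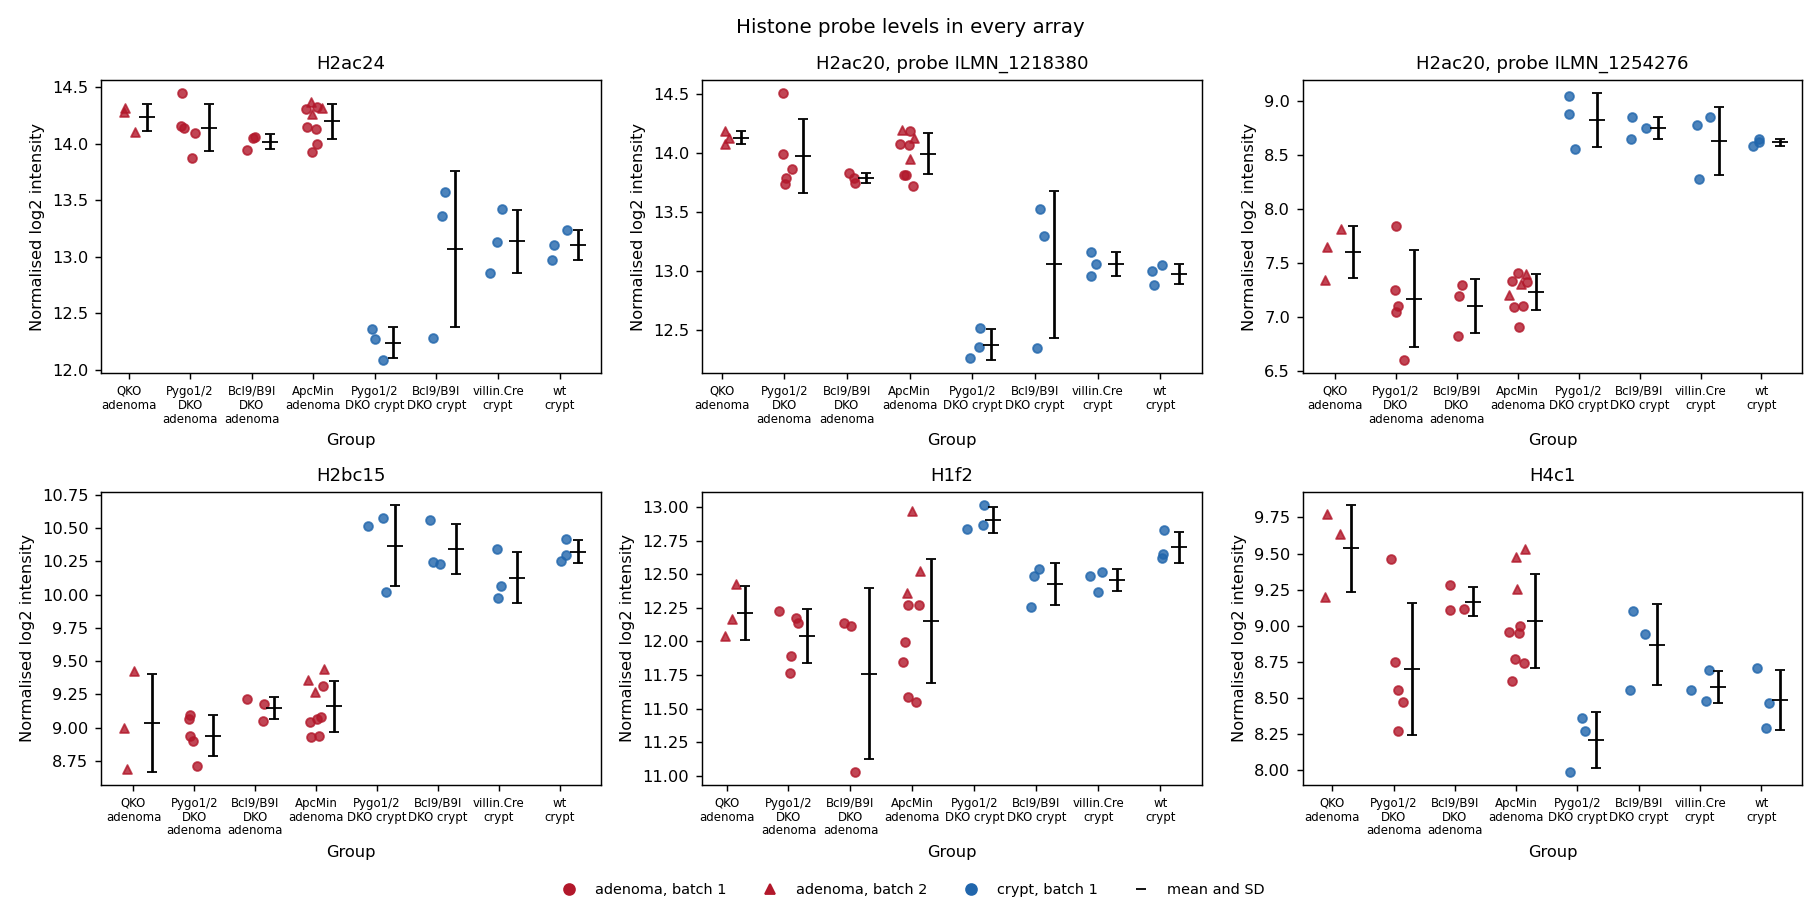
Normalised log2 intensity (vertical axis) of 6 histone probes in every array, by group, with the mean and SD beside the points; circles are batch 1 and triangles batch 2, red adenomas and blue crypts. H2ac24 lies between 13.87 and 14.45 in adenomas and between 12.09 and 13.57 in crypts, while the H2ac20 probe ILMN_1254276 and H2bc15 lie lower in adenomas than in crypts.

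The same split by class was seen in a comparison that shares no array with the first and in which both tissues lacked Pygo1 and Pygo2. ApcMin Pygo1/2 DKO adenomas had 17 histone probes called higher and 18 lower than Pygo1/2 DKO crypts, of 69 tested (limma, adjusted p under 0.01, at which 42.1% of all probes were called, 21.7% higher and 20.4% lower). Of the 16 probes that were higher in ApcMin adenomas, 14 (87.5%) were higher here too, which is 82.4% of the 17. The 18 lower probes were the same 18, and none was called in opposite directions. The H2A median was 1.57, the H2B median -1.02, the H1 median -0.88, the H3 median 0.59 and the H4 median 0.29, against -0.05 over all probes (0.17 with arrays scaled to a common median).

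H2ac15 (Hist1h2ak) showed the highest change. It measured 13.16, 12.27, 12.48, 12.53 and 12.52 in ApcMin Pygo1/2 DKO adenomas, against 10.71, 10.48 and 10.27 in Pygo1/2 DKO crypts. All adenoma arrays were above all crypt arrays, with replicate 1 of the adenomas the highest, and the change was 2.09 (SE 0.21, 4.26-fold, adjusted p = 1.2e-05). H2ac24 measured 14.45, 13.87, 14.09, 14.14 and 14.16 in the adenomas, against 12.36, 12.27 and 12.09 in the crypts (1.87, SE 0.18, adjusted p = 6.63e-06). The H2ac20 probes again parted, ILMN_1218380 at 1.57 and ILMN_1254276 at -1.63 (SE 0.25, adjusted p = 0.000224). On ILMN_1254276 the adenomas measured 7.25, 7.84, 7.10, 7.05 and 6.60, against 9.04, 8.55 and 8.87 in the crypts.

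Among H2B genes, H2bc15 measured 9.06, 8.90, 8.93, 8.71 and 9.09 in ApcMin Pygo1/2 DKO adenomas, against 10.57, 10.51 and 10.02 in Pygo1/2 DKO crypts (-1.41, SE 0.18, adjusted p = 6.85e-05). The groups did not overlap. The 11 H2B probes called lower changed by -1.67 to -0.81. Of 12 H3 probes, H3c1, H3c4 and H3c7 were called higher, with changes of 1.22, 0.93 and 0.94. H3c10 was at least 1.44-fold higher on probe ILMN_2698519, which was detected in none of the Pygo1/2 DKO crypt arrays, but was not called (adjusted p = 0.0107). A bound of this kind compares the higher group's mean with the lowest signal detected on each array of the lower one. No H4 probe was called (smallest adjusted p = 0.0450), although 16 of 19 had a change above 0 (47.9% of all probes).

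In ApcMin Bcl9/B9l DKO adenomas against Bcl9/B9l DKO crypts, 11 of 66 histone probes were called, all lower (limma, adjusted p under 0.01, at which 22.1% of all probes were called, 11.9% higher and 10.2% lower). They were 7 H2B and 4 H2A probes, and all 11 were among the 18 that were lower in ApcMin adenomas against wt crypts (61.1% of those). Leaving out 1 array gave between 2 and 8 calls. There were 2 without crypt replicate 1, 2 without crypt replicate 2, 3 without crypt replicate 3, 5 without adenoma replicate 1 and 2 without adenoma replicate 2. H2bc15 measured 9.05, 9.18 and 9.21 in the adenomas, against 10.23, 10.56 and 10.24 in the crypts (-1.22, SE 0.19, adjusted p = 0.00189), without overlap. The H2ac20 probe ILMN_1254276 measured 7.29, 6.82 and 7.19 in the adenomas, against 8.75, 8.85 and 8.64 in the crypts (-1.68, SE 0.20, adjusted p = 0.000535).

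The H2A median was 0.75 in this comparison and the H2B median -1.0, against -0.01 over all probes (0.20 with arrays scaled to a common median), and 14 H2A probes had an unadjusted p under 0.05 with a change above 0 (25.8% of all probes), yet none was called. The crypt arrays were spread widely. H2ac24 measured 13.94, 14.06 and 14.05 in ApcMin Bcl9/B9l DKO adenomas, against 13.36, 12.29 and 13.57 in Bcl9/B9l DKO crypts, where replicate 2 was more than 1 log2 unit below the others. H2ac12 reached 1.12 (adjusted p = 0.0259) and H2ac7 1.05 (adjusted p = 0.0245) on their probes with the larger changes.

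Probes named for the partners of the head-to-head pairs printed above are part of those already counted, not a separate test of the split. The pairs were chosen after their values were seen. Whether each probe measured only its named gene was not tested. In ApcMin adenomas against wt crypts, all 6 probes of the H2A partners were called higher, with changes of 0.69 to 1.06 (18.4% of all probes were higher). All 5 probes of the H2B partners were called lower, with changes of -1.25 to -0.70 (20% of all probes were lower). In ApcMin Pygo1/2 DKO adenomas against Pygo1/2 DKO crypts, the 6 were called higher by 1.85 to 2.09 and the 5 lower, with changes of -1.41 to -0.81. Of all probes, 21.7% were called higher there and 20.4% lower. In the Bcl9/B9l DKO comparison the H2A partners changed by 0.88 to 1.12 with none called. The H2B partners changed by -1.22 to -0.90 with 3 of 5 called (10.2% of all probes were called lower). For H2ac15/H2bc15, with 3 CCAAT in its region, H2ac15 measured 11.77 to 12.49 in batch 1 ApcMin adenomas, against 11.20 to 11.53 in wt crypts, and H2bc15 8.93 to 9.31 in the same adenomas, against 10.25 to 10.42 in wt crypts. Neither partner's groups overlapped.

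**Figure D3:**
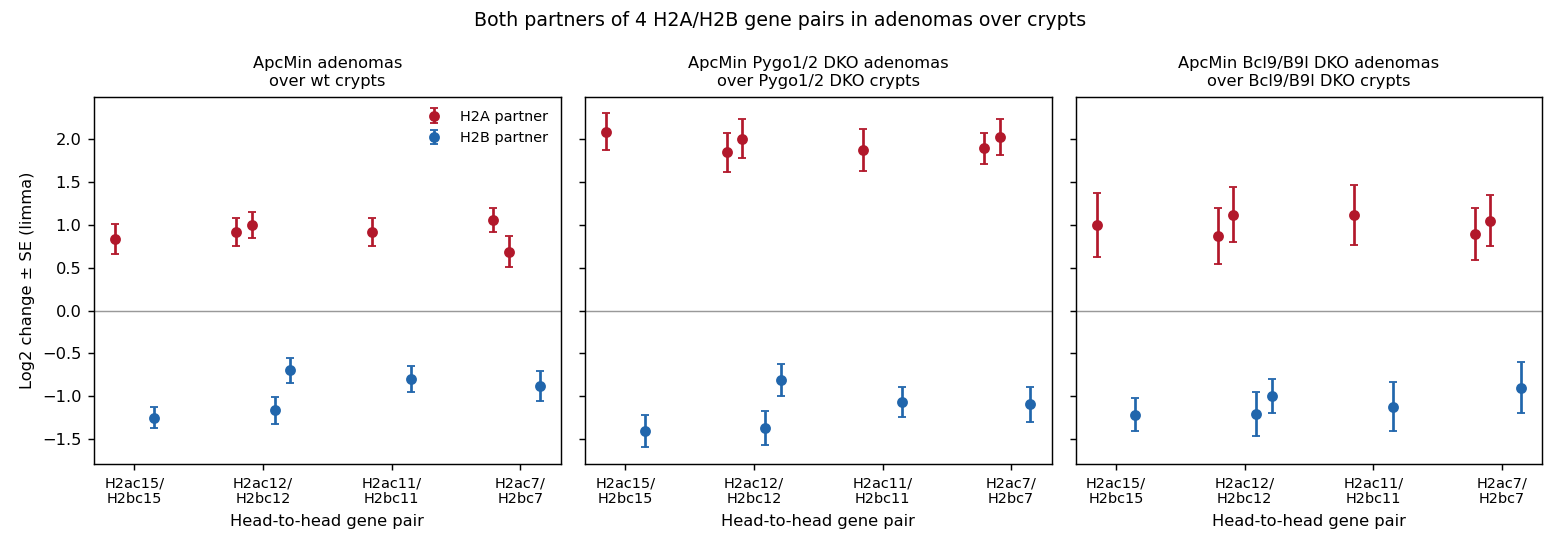
Log2 change with its SE (vertical axis) of each probe of 4 head-to-head gene pairs in the 3 comparisons of adenomas with crypts, H2A partners in red and H2B partners in blue. Every H2A probe lies above 0 and every H2B probe below it, the H2A partners between 1.85 and 2.09 in the middle panel.

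Genes that act with the histones were counted in the same 3 comparisons, in which 18.4%, 21.7% and 11.9% of all probes were called higher. Of the probes for DNA replication and mitosis genes, 23 of 33 were called higher and none lower in ApcMin adenomas against wt crypts (median 0.88), 28 of 35 in the Pygo1/2 DKO comparison (median 1.5) and 14 of 33 in the Bcl9/B9l DKO comparison (median 1.14). Mcm4, a subunit of the replicative helicase, averaged 11.28 ± 0.33 in ApcMin adenomas of both batches and 9.15 ± 0.20 in wt crypts (SD, n = 9 and 3). Its fitted change, which rests on the batch 1 arrays, was 1.93 (SE 0.15, adjusted p = 3.57e-07). Rrm1, a subunit of ribonucleotide reductase, changed by 2.03 on probe ILMN_1258715. Histone chaperones were called higher in 7 of 26, 15 of 26 and 5 of 24 probes, a share above that of all probes in each, and most so in the Pygo1/2 DKO comparison. Among them were Nap1l1, which carries H2A and H2B (2.02 in ApcMin adenomas against wt crypts), and Chaf1b of the replication-coupled assembly factor (1.20). Genes of histone mRNA processing and transcription were called higher in 7 of 21, 12 of 20 and 1 of 22 probes, the last share being below that of all probes. Among them were the cap-binding Ncbp1 (1.10) and the S-phase transcription factor E2f1 (0.97).

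The replication-independent variants, which are made outside S phase too, were called higher in 6 of 15 probes and lower in 1 in ApcMin adenomas against wt crypts, higher in 7 of 15 in the Pygo1/2 DKO comparison and in 1 of 13 in the Bcl9/B9l DKO comparison, against the same shares of all probes (18.4%, 21.7% and 11.9%). The last count is below its share. Both genes of H2A.Z, the variant placed at promoters, were called, in opposite directions. H2az1 averaged 11.91 ± 0.38 in ApcMin adenomas of both batches and 10.86 ± 0.06 in wt crypts (SD, n = 9 and 3). Its fitted change, which rests on the batch 1 arrays, was 0.87 (SE 0.18, adjusted p = 0.00127). H2az2 changed by -0.95 (SE 0.15, adjusted p = 0.000143). H2ax, the variant phosphorylated at DNA breaks, changed by 0.56.

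Other cells came with the adenomas. The summed normalised intensity of 11 fibroblast and matrix genes was 2705 to 13061 in ApcMin adenomas, 9885 to 16180 in ApcMin Pygo1/2 DKO, 8997 to 11607 in ApcMin Bcl9/B9l DKO and 1275 to 2078 in ApcMin QKO adenomas, against 252 to 511 over all crypts, and on the 1 probe summed per gene 10 of the 11 were detected in no wt crypt array, although Dcn and Col6a1 each had a probe that was detected in wt crypts. The sums of endothelial genes were 1718 to 3544 in ApcMin adenomas and 237 to 250 in wt crypts, those of leukocyte genes 2910 to 8560 in ApcMin adenomas and 855 to 863 in wt crypts, and those of enterocyte genes 30789 to 60544 in ApcMin adenomas and 70703 to 80636 in wt crypts. The epithelial genes gave 38105 to 46515 in ApcMin adenomas and 41121 to 41762 in wt crypts. In bulk samples fewer cells of a type and less RNA per cell cannot be told apart, and the part of these cells in the histone changes was not tested. Mean signal was 307 to 445 over the 26 arrays of batch 1 and 156 to 217 over the 6 of batch 2, and batch 1 arrays detected 12913 to 16319 probes while those of batch 2 detected 14081 to 14666. Pygo2 was lower in ApcMin Pygo1/2 DKO than in ApcMin adenomas (-1.14, SE 0.15, adjusted p = 0.00188) and in Pygo1/2 DKO than in wt villin.Cre crypts (-1.61, SE 0.20, adjusted p = 0.0280). In ApcMin QKO adenomas it measured 9.62 to 9.83, against 9.81 to 10.49 in ApcMin adenomas, and was not called (-0.36, adjusted p = 0.292). None of the Bcl9 and B9l probes was called lower in the Bcl9/B9l DKO or QKO groups, and since their positions relative to the deleted parts are not known here, they check nothing.

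Loss of the cofactors was then compared within adenomas. Against ApcMin adenomas, which carried no villin.Cre, loss of the cofactors and the recombinase cannot be told apart. None of the 70 histone probes was called in ApcMin Pygo1/2 DKO against ApcMin adenomas (limma, adjusted p under 0.01, at which 0.181% of all probes were called), and 7 had an unadjusted p under 0.05, 3 higher and 4 lower (14.6% of all probes in either direction). The H2B median was -0.17, with 1 of 15 probes above 0 (52.8% of all probes). None of 69 was called in ApcMin Bcl9/B9l DKO against ApcMin adenomas (background 2.27%), and 10 had an unadjusted p under 0.05, 8 higher and 2 lower (background 22.5%). All 19 H4 probes had a change above 0 there, between 0.06 and 0.56 with a median of 0.31, and 54.5% of all probes did. H4c8 measured 7.06, 7.91 and 7.91 in ApcMin Bcl9/B9l DKO adenomas, against 6.60 to 7.28 in batch 1 ApcMin adenomas (median 7.08), and replicate 1 of the DKO lay within that range (0.56, adjusted p = 0.119). The smallest adjusted p was 0.0540, for H3c10 on probe ILMN_2860616, which was detected in none of the batch 1 ApcMin adenoma arrays. The gene's other probes changed by 0.33 and 0.20 and were not called.

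In ApcMin QKO against ApcMin adenomas, where the difference rests on 3 arrays each of batch 2, none of 66 histone probes was called (background 4.41%), and 11 had an unadjusted p under 0.05, 4 higher and 7 lower (background 23.9%). Of these, 6 were H2B probes, all lower. The H2B median was -0.42, with 1 of 14 probes above 0 (53.7% of all probes), and for 10 the QKO arrays were all below the ApcMin arrays (15.3% of all probes). H2bc21 had the smallest adjusted p, 0.0408, on probe ILMN_1231066, at 6.14, 5.08 and 5.62 in ApcMin QKO adenomas against 6.61, 6.71 and 6.56 in batch 2 ApcMin adenomas (-0.96). H2bc7 measured 11.74, 11.36 and 11.16 in ApcMin QKO adenomas, against 11.79 to 11.97 in batch 2 ApcMin adenomas. On this H2bc21 probe and on H2bc7 the 3 QKO arrays lay below the 3 batch 2 ApcMin arrays. The other H2bc21 probe, ILMN_1253851, changed by 0.11, with overlap, and was not called. Beside this, 4 of 17 fibroblast and matrix probes were called lower in QKO and none higher, and their part in the H2B values was not tested. H2ac24 measured 14.28, 14.32 and 14.10 in ApcMin QKO adenomas, against 14.27 to 14.37 in batch 2 ApcMin adenomas, with overlap. The H4 median was 0.19, and H4c17 on probe ILMN_1246576 measured 7.91, 7.86 and 7.42 in ApcMin QKO adenomas, against 6.98 to 7.16 in batch 2 ApcMin adenomas (0.61, adjusted p = 0.0477).

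No histone probe was called between the knockout adenomas. For ApcMin Bcl9/B9l DKO against ApcMin Pygo1/2 DKO adenomas 0.774% of all probes were called, for ApcMin QKO against ApcMin Pygo1/2 DKO adenomas 2.46%, and for ApcMin QKO against ApcMin Bcl9/B9l DKO adenomas 0.256%. Histone probes with an unadjusted p under 0.05 numbered 0, 1 and 0 (12.2%, 17.6% and 12.8% of all probes). The comparisons with QKO are bridged across batches by the ApcMin adenomas.

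In normal crypts the H2A probes were lower in Pygo1/2 DKO than in wt villin.Cre crypts, but none of the 59 histone probes passed the threshold for crypts (limma, adjusted p under 0.05, at which 0.267% of all probes were called). The smallest adjusted p was 0.0549. At an unadjusted p under 0.05 there were 27 histone probes, 2 higher and 25 lower (7.04% and 10.6% of all probes), and the arrays did not overlap for 4 that were higher and 28 that were lower (9.61% and 13.7%). With the deposited log2 values in place of the scanner intensities, 13 histone probes were called, 2 higher and 11 lower. The 0.267% belongs to the scanner intensities and is no background for these 13.

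H2A gave 14 of the 25 lower probes, with a median of -0.63 and 3 of 21 above 0 (49.9% of all probes). H2ac7 probe ILMN_2795040 measured 10.60, 10.42 and 10.29 in Pygo1/2 DKO crypts, against 11.29, 11.67 and 11.41 in wt villin.Cre crypts (-1.10, SE 0.17, adjusted p = 0.0549). H2ac24 measured 12.36, 12.27 and 12.09 in Pygo1/2 DKO crypts, against 13.13, 13.42 and 12.86 in wt villin.Cre crypts (-0.85, SE 0.18, adjusted p = 0.085). In both genes every DKO array lay below every villin.Cre array and also below the wt arrays. The H2ac20 probe ILMN_1254276, one of those lower in adenomas, measured 9.04, 8.55 and 8.87 in Pygo1/2 DKO crypts, against 8.85, 8.27 and 8.77 in wt villin.Cre crypts, with overlap.

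H2B did not move with H2A. Its median was 0.04 (-0.05 with arrays scaled to a common median), with 2 of its probes lower at an unadjusted p under 0.05. H2bc15 measured 10.57, 10.51 and 10.02 in Pygo1/2 DKO crypts, against 10.07, 10.34 and 9.97 in wt villin.Cre crypts, with overlap. Over the head-to-head pairs the H2A partners changed by -1.10 to -0.85 and the H2B partners by -0.14 to 0.25, none called. The H2B gene that was lowest, H2bc21, has no H2A partner among the pairs and measured 6.17, 6.14 and 6.05 on probe ILMN_1231066 in Pygo1/2 DKO crypts, against 6.95, 6.65 and 7.43 in wt villin.Cre crypts (-0.96, adjusted p = 0.0963). H1f2 measured 12.83, 13.02 and 12.86 on ILMN_2774537 in Pygo1/2 DKO crypts, against 12.52, 12.49 and 12.37 in wt villin.Cre crypts, all DKO arrays being the higher (0.42, SE 0.14, adjusted p = 0.191).

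H3 and H4 lay between these. H3 had a median of -0.29, with 4 of 9 probes lower at an unadjusted p under 0.05, and H4 a median of -0.23, with 5 of 14 lower. H3c1 (Hist1h3a) measured 6.11, 5.66 and 5.52 in Pygo1/2 DKO crypts, against 6.93, 6.48 and 6.63 in wt villin.Cre crypts (-0.93, adjusted p = 0.0888), without overlap. H4c3 and the H3c10 probe ILMN_2698519 were detected in none of the Pygo1/2 DKO crypt arrays, and were at least 1.18-fold and 1.24-fold lower there. Replication and mitosis genes were also lower, 21 of 32 probes at an unadjusted p under 0.05 (10.6% of all probes). Their median was -0.60 and none was called. Their summed intensity was 3301 to 4565 in Pygo1/2 DKO crypts and 4996 to 5916 in wt villin.Cre crypts. The 12 variant probes were all below 0 (median -0.46), and H2az1 averaged 10.45 ± 0.07 in Pygo1/2 DKO crypts and 10.94 ± 0.19 in wt villin.Cre crypts (SD, n = 3 each). The enterocyte genes summed to 81465 to 92778 in Pygo1/2 DKO crypts and 72942 to 80112 in wt villin.Cre crypts. The part of either in the histone values was not tested.

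**Figure D4:**
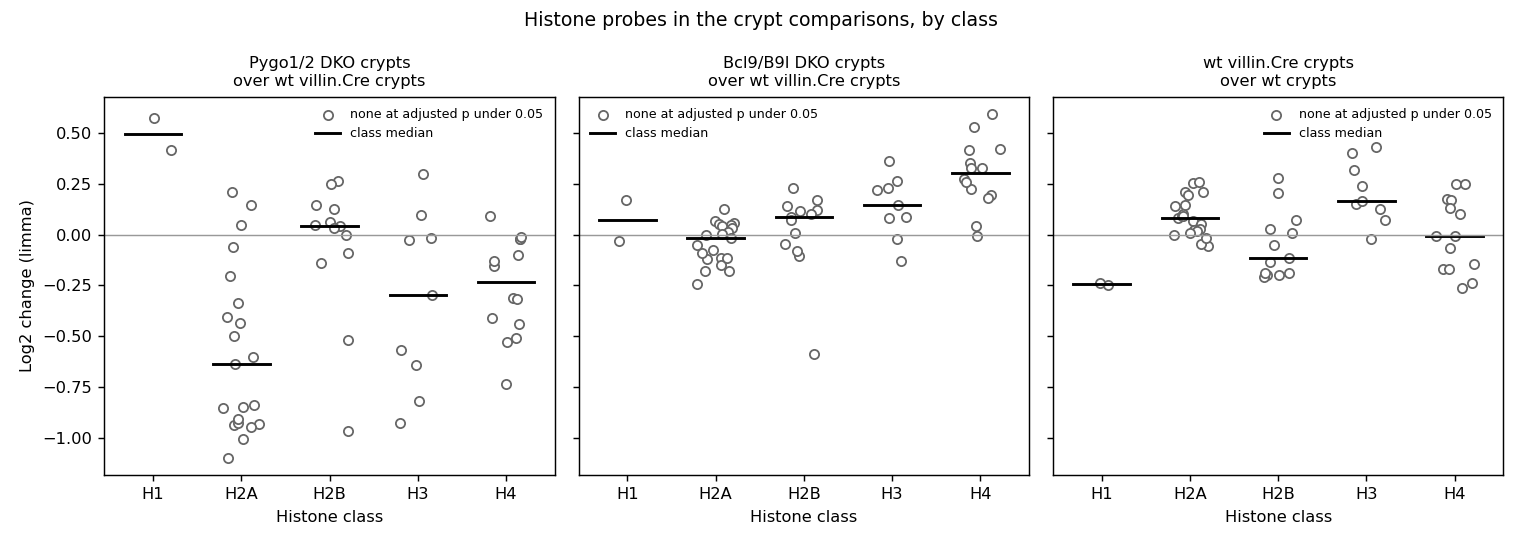
Log2 change of each tested histone probe (vertical axis) by class in 3 comparisons of crypts, with bars at class medians; no probe passed limma's adjusted p under 0.05. In the left panel the H2A median is -0.63 and the H2B median 0.04, while in the middle panel the H4 median is 0.30.

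Bcl9/B9l DKO crypts showed no such shift as a group. None of 59 histone probes was called against wt villin.Cre crypts (background 0.0381%), 2 had an unadjusted p under 0.05 (background 4.51%), both of H4, and the H4 median was 0.30, with 13 of 14 probes above 0 (47.4% of all probes). The H2A values of the group were split. H2ac7 probe ILMN_2795040 measured 11.55, 10.71 and 11.79 in Bcl9/B9l DKO crypts, against 11.29, 11.67 and 11.41 in wt villin.Cre crypts, so that replicate 2 lay below all wt villin.Cre arrays while replicates 1 and 3 did not. Set directly against each other, Bcl9/B9l DKO and Pygo1/2 DKO crypts had no histone probe called of 58 (background 0.103%, smallest adjusted p 0.371), and 29 with an unadjusted p under 0.05, 27 higher in Bcl9/B9l DKO and 2 lower (background 7.55%). The class medians were 0.71 (H2A), 0.66 (H3), 0.58 (H4), 0.03 (H2B) and -0.43 (H1).

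With both DKO groups together against both wt groups, none of 59 was called (background 0.54%) and 9 had an unadjusted p under 0.05, 1 higher and 8 lower (background 12.6%). The H2A median was -0.32, against -0.01 over all probes (-0.11 with arrays scaled to a common median), with 3 of 21 probes above 0 (48.5% of all probes). The smallest adjusted p was 0.0979, for H2bc21 on probe ILMN_1231066 (-0.87), while the gene's other probe changed by -0.07. The wt groups, which differ in the recombinase, were also compared with each other. In wt villin.Cre against wt crypts, none of 59 was called and none had an unadjusted p under 0.05, where 0.0386% and 4.59% of all probes did.

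Whether loss of Pygo changed histone RNAs otherwise in adenomas than in crypts was tested by the difference between both effects. The crypt effect was taken against wt villin.Cre crypts, whereas the ApcMin adenomas carried no villin.Cre. In adenomas, loss of the cofactors and the recombinase therefore cannot be told apart. None of 70 probes was called (limma, adjusted p under 0.01, background 0.0755%). At an unadjusted p under 0.05 there were 19, all with the higher value in adenomas (10% of all probes), 14 of them H2A, and the H2A median of the difference was 0.72, against 0.02 over all probes (0.15 with arrays scaled to a common median). H2ac7 probe ILMN_2795040 had the smallest adjusted p (1.35, SE 0.27, adjusted p = 0.0279). It measured 13.01, 12.20, 12.61, 12.31 and 12.31 in ApcMin Pygo1/2 DKO adenomas, against 11.78 to 12.51 in batch 1 ApcMin adenomas, and in crypts had the values given above. This test shares its crypt arrays with the comparisons of Pygo1/2 DKO crypts. For Bcl9/B9l none of 69 was called (background 0.488%), and 2 had an unadjusted p under 0.05 (background 15%).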

How the data were processed

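The authors exported bead intensities of 45281 probes from GenomeStudio 2011.1 with no correction for background, and the deposited table pairs every intensity with a detection p-value. A second deposited table holds log2 values of 20824 probes, transformed and quantile-normalised by the authors, who used limma 3.34.9. Batch adjustment of these log2 values is not stated in the labels. They served as an alternative only. Probe genes are those of the platform table (3207 of the 20824 probes, 15.4%, are unnamed here), updated through Entrez identifiers to RefSeq symbols, which matched for all 70 histone probes. Promoter windows were matched for 43 of the 48 genes.

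The intensities of each comparison were background-corrected with neqc (offset 16, negative controls inferred from the detection p-values), quantile-normalised and log2-transformed in R 4.3.3 with limma 3.58.1. A probe was kept where its detection p fell under 0.01 in at least 1 array. Linear models held the groups and, where both batches entered, the batch. Adjusted p-values (Benjamini-Hochberg) cover all probes kept, called at 0.05 in crypts and at 0.01 wherever adenomas entered, as in the study's methods. Levels per array come from 1 normalisation of all 32 arrays, so they differ slightly from the fitted changes. Tables and figures were made with matplotlib 3.10.9, pandas 2.3.3, scipy 1.17.1 and numpy 2.4.6 under Python 3.11.15, and the fits were tested on simulated data.

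Named probes were those past the threshold, those with the 2 smallest p of each class and the highest signal, the targeted genes and up to 4 members of each list, beside which H2ac22, H2ac19, H2bc7, H2bc21, H3c1, H3c10, H4c3 and H4c17, the gene pairs and both probes of H2ac20 were chosen after their values were seen. Members and lists were chosen with earlier results of these data known. List genes without a named probe, such as Slbp and Mki67, were not analysed here. The labelling kit primes from poly(A) tails, which many histone mRNAs lack. Alternatives were no background correction, median scaling, no filter and a stricter filter on undetected probes, the deposited log2 values, single batches, a replicate block, and leaving out each array.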

Additional observations from a re-analysis of the deposited data

Results flagged for a closer look

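Among 26 groups of 4 or more arrays examined over the named histone probes, 1 array stood apart from its group. In ApcMin Pygo1/2 DKO adenomas, H2bc12 (probe ILMN_2636781) was lowest in replicate 4, at 8.28, and the nearest of the other 4 arrays measured 8.60. The gap was 0.713 of the group's whole range, and about 1 group in 20 passes this limit by chance.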

How the results depend on the processing

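Alternative runs followed 97 probe results, the called histone probes of the comparisons of adenomas with crypts and the smallest p of some others. Not every result named above is among them, and results chosen by small p tend to keep their direction. None of the 97 changed direction under any alternative run. Among them, 1380 alternative values kept their side of the threshold, 173 lost the call and 18 gained one. Class medians near 0 could change sign with median scaling. Examples are H4 in ApcMin adenomas against wt crypts and H2B in Pygo1/2 DKO against wt villin.Cre crypts. The replicate numbers do not pair the arrays: over 52 same-numbered pairs the deviations from the group means correlated between -0.409 and 0.428, with 19 over 0.1. With the replicate block, ApcMin adenomas against wt crypts kept 8 calls (3 higher, 5 lower) and the Pygo1/2 DKO tissues gave 23 (15 higher, 8 lower). Both of these runs used fewer arrays. The block kept every array in the Bcl9/B9l DKO tissues, which gave 2 calls, and in Pygo1/2 DKO against wt villin.Cre crypts, which gave 4. No paired analysis was possible for the comparisons with QKO because they have too few shared numbers within a batch. For the Bcl9/B9l DKO tissues median scaling gave 4 calls and no filter 5. For Pygo1/2 DKO against wt villin.Cre crypts there were 13 calls with the deposited log2 values, 5 without background correction, 2 with median scaling and 2 with the stricter filter. For both DKO crypt groups together median scaling gave 1. The share of all probes called in these runs is not given here, and the cause was not tested. Leaving out 1 array gave 27 to 36 calls for ApcMin adenomas against wt crypts, 30 to 37 for the Pygo1/2 DKO tissues and 2 to 8 for the Bcl9/B9l DKO tissues, and 0 to 0 in all other comparisons. With 3 arrays in most groups, signal near background limits the H3 and H4 probes most, since 7 of 12 and 9 of 19 were detected in every array.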
